A study of Mus musculus with 18 samples.

Results

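The comparison set the 6 arrays labelled FAK7 against the 6 arrays labelled FAK5, which are 12 of the 18 arrays of the series. The arrays were assigned by their label, with no use of their values, and the arrays of mouse label 1 stayed out of the fit. On each array the labels describe cells from a colon tumour of a C57Bl/6 mouse aged 17 weeks that carried a Cre transgene and a floxed Apc allele, written Fapbl-Cre;Apc2lox14/+, within a genotype abbreviated FAK. The cells had been selected for the surface protein CD110 with antibody-coated magnetic beads and kept with Dox. In the FAK7 label, 3 arrays were of cells given 1 µM U73122, a compound widely used to inhibit phospholipase C, for 24 h, and 3 were of cells without it. The FAK5 label held the same 3 and 3. All groups shared the transgenes, the strain, the bead selection and Dox. Each label is 1 mouse number, so mouse and tissue content cannot be told apart, and the promoter behind the Cre was not named in the sources used here. The series was designed to compare treated with untreated cells. Here the FAK7 arrays were compared with the FAK5 arrays, with treatment as a block.

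The labels name the tissue as colon. Epcam, a surface protein of nearly all epithelia including colon, stayed below detection on all 12 arrays, with a log2 signal of 4.52 ± 0.22 on FAK7 arrays and 4.56 ± 0.17 on FAK5 arrays (SD, n = 6 each). Cdx2, the transcription factor that specifies intestine, was detected on 0 FAK7 arrays and 2 FAK5 arrays. Hpx and Apoa1, which encode plasma proteins made by hepatocytes, were near the top of the scale on FAK7 arrays, and Actc1 and Myh4, which encode proteins of the contractile filaments, on FAK5 arrays. The contents of the arrays are therefore described as liver-like (FAK7) and skeletal muscle-like (FAK5).

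Hepatocytes make most plasma proteins, hold the urea cycle and bile acid synthesis, and release glucose into the blood from glycogen and from non-sugar precursors. Skeletal muscle fibres are filled with filaments of myosin and actin, whose sliding is switched on by calcium from the sarcoplasmic reticulum and paid for by creatine phosphate, glycogen and mitochondria. Many steps of metabolism are carried out by different isozymes in these tissues, encoded by different genes.

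Levels are normalized log2 signals, and a difference is the FAK7 mean minus the FAK5 mean, so that 1 unit is a 2-fold difference. Across 10917 genes, 1182 (10.8%) were at least 4-fold higher and 1023 (9.37%) at least 4-fold lower on FAK7 arrays at an adjusted p under 0.05 (limma, Benjamini-Hochberg over all genes). With each array scaled to its median instead, the counts were 1554 higher and 806 lower, and the median of all genes moved by 0.35, so small differences depend on the scaling. At an adjusted p under 0.05 alone, 82.1% of genes were called, 41.5% higher and 40.7% lower, so passing that threshold by itself says little about a gene here. The median difference over all genes was 0.01 and the median size of a difference 0.88. For 1886 genes (17.3%) the 95% confidence interval lay within 1.5-fold in both directions. A set of 525 genes was detected on all 6 FAK7 arrays and on no FAK5 array, and 648 genes were detected on all 6 FAK5 arrays and on no FAK7 array.

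**Figure D1:**
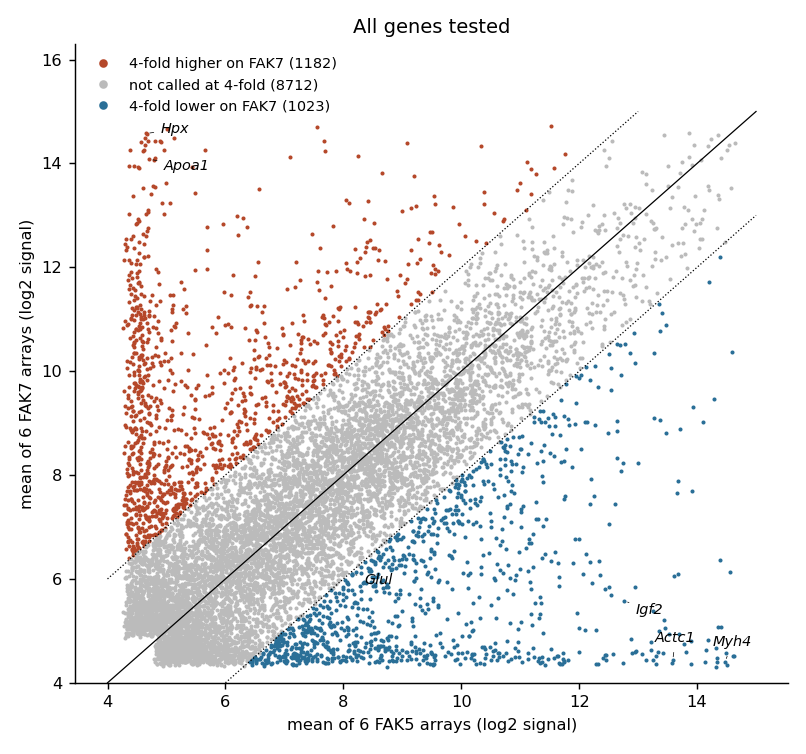
Mean level of each of 10917 genes on the 6 FAK7 arrays (y axis, log2 signal) against the 6 FAK5 arrays (x axis, log2 signal). The solid line is equality and the dotted lines are 4-fold; the 1182 genes called higher on FAK7 arrays lie above and the 1023 called lower lie below, many of them along an axis at background, with Hpx and Apoa1 at the top left and Myh4 and Actc1 at the bottom right.

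Within a label the arrays were alike across genes, with correlations of 0.970 to 0.993 among FAK7 arrays and 0.962 to 0.983 among FAK5 arrays, against 0.545 to 0.589 between FAK7 and FAK5 arrays; these are descriptions across genes, which are not independent replicates. Between 38.2% and 40.6% of probes were detected on a FAK7 array, and between 39.6% and 42.6% on a FAK5 array. Sex chromosome transcripts divided the FAK5 arrays. Xist, the RNA that coats the inactive X chromosome, was detected on 4 FAK5 arrays (treated replicates 1 to 3 and untreated replicate 2) and on no FAK7 array. Eif2s3y, a Y-linked gene, was detected on the other 2 FAK5 arrays, at 9.73 and 9.99, and on all 6 FAK7 arrays at 8.14 to 8.50. The FAK5 label therefore holds arrays of both kinds, although it names 1 mouse. Without the 4 FAK5 arrays with Xist, 1202 genes were at least 4-fold higher and 1059 lower. Nothing in the labels shows that the replicates were separate cultures, and the p-values therefore reflect the spread among these 12 arrays alone, part of which may be technical.

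Hpx, which binds free haem in plasma, lay between 14.44 and 14.69 on FAK7 arrays (median 14.59) and between 4.50 and 5.09 on FAK5 arrays (median 4.58). Apoa1, the main protein of high-density lipoprotein, lay between 13.90 and 14.28 on FAK7 arrays (median 14.08) and between 4.58 and 4.92 on FAK5 arrays (median 4.69). Both were near the upper end of the scale on every FAK7 array and at the lower end on every FAK5 array. Hpx, which 1 of the 6 FAK5 arrays detected, was at least 833-fold higher (difference 9.92, SE 0.10, adjusted p = 6.0e-19), and Apoa1 was at least 609-fold higher (adjusted p = 4.7e-19). Where a gene was detected on no array or on only some arrays of the dimmer label, its ratio is written "at least" and was computed, on each of those arrays, against the higher of the gene's own signal and the lowest signal among detected probes. Differences on the log2 scale are as fitted, and for such genes they depend on the background level.

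Myh4, the fastest myosin heavy chain of adult limb muscle, lay between 4.24 and 4.61 on FAK7 arrays (median 4.39) and between 14.41 and 14.56 on FAK5 arrays (median 14.46). Actc1, cardiac actin, which skeletal muscle also makes before birth and in repair, lay between 4.26 and 4.64 on FAK7 arrays (median 4.39) and between 10.84 and 14.60 on FAK5 arrays (median 14.19). Myh4 was even across the FAK5 arrays, while Actc1 was clearly lower on untreated replicate 2 than on the other 5. Myh4 was at least 761-fold lower on FAK7 arrays (adjusted p = 6.6e-20) and Actc1 at least 412-fold lower (adjusted p = 8.3e-11). In RNA from bulk cells, fewer cells of a type and less RNA per cell cannot be told apart.

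**Figure D2:**
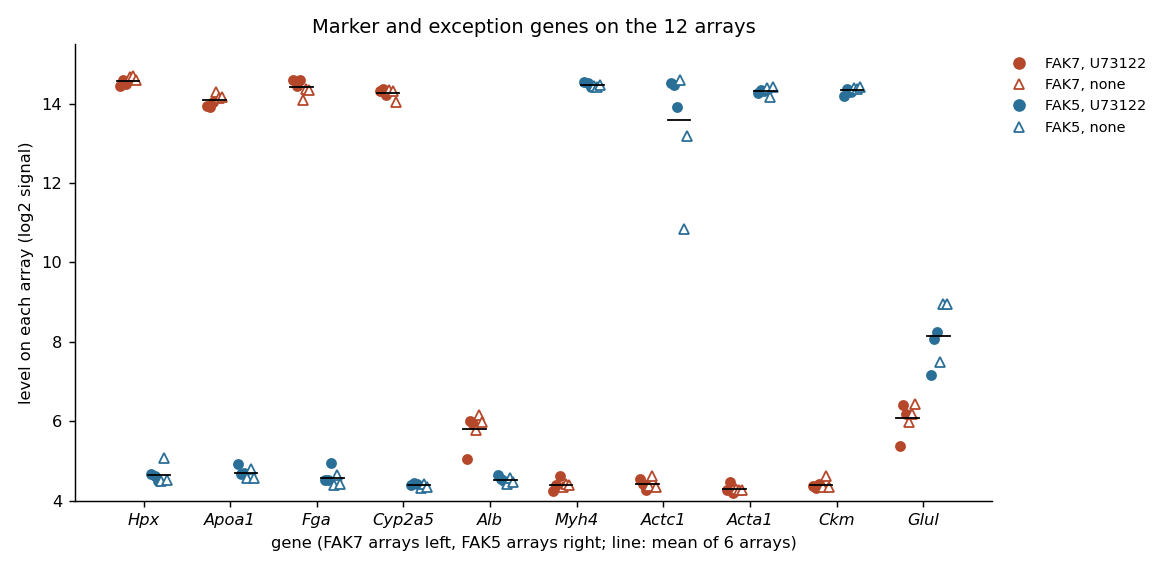
Level of 10 genes on each of the 12 arrays (y axis, log2 signal), with FAK7 arrays to the left and FAK5 arrays to the right for each gene, filled circles for U73122, open triangles for no treatment and a line at the mean of 6 arrays. Hpx, Apoa1, Fga and Cyp2a5 lie above 13 on FAK7 arrays, Myh4, Acta1 and Ckm above 14 on FAK5 arrays; Alb reaches 6.15 on FAK7 arrays, and Glul, against the other liver genes drawn, is higher on FAK5 arrays.

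The 15 largest differences upward were all in genes known for products of liver. They were Hpx; the protease inhibitor Serpina1c (at least 858-fold); the coumarin-oxidising cytochrome P450 Cyp2a5 (at least 703-fold); Mat1a, which makes S-adenosylmethionine in liver (at least 818-fold); Fga, the alpha chain of fibrinogen (at least 769-fold); the lipid-binding glycoprotein Azgp1; Ambp, precursor of alpha-1-microglobulin and bikunin; the apolipoproteins Apoc3, Apoc4, Apoa2 and Apoa4; Kng1, the kininogen; Arg1, the arginase of the urea cycle; the fetuin Ahsg; and the plasma carboxylesterase Ces1c. Their differences ran from 9.50 (Ces1c) to 9.92 (Hpx). On the other side the 15 largest differences were in genes of skeletal muscle fibres, several of them fast isoforms. They were the fast troponins Tnnc2, Tnnt3 and Tnni2; the tropomyosin Tpm2; the myosin light chains Myl1 and Mylpf; the heavy chains Myh4 and Myh1; skeletal actin Acta1; the creatine kinases Ckm and Ckmt2; the calcium buffer Pvalb; the calcium pump Atp2a1; titin, Ttn; and the Z-disc crosslinker Actn2. Their differences ran from -9.28 (Mylpf) to -10.16 (Tnnc2). Each set lay close to the largest difference the scale allowed, since the brightest level was 14.77 and the lowest signal among detected probes lay between 4.68 and 4.99, so these genes are not ranked beyond their SE of 0.07 to 0.17. Members of families with near-identical sequences (Serpina1, Cyp2d, Mup, Saa1 and Saa2, and Myh1, Myh4 and Myh8) may share signal between probes.

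The sequences just upstream of some of these genes are shown because members of each side that move together hold, in part, the same short motifs there. Windows are the 250 bases before the gene start, from RefSeq, build GRCm38.p6, read 5′ to 3′ on the gene's strand, with motifs in capitals. The motifs, sought on both strands, were GTTAAT (the core of sites for hepatocyte nuclear factor 1), AAAGTCC (part of sites for hepatocyte nuclear factor 4), TGTTTAC (forkhead box A factors), CAGCTG (an E box of the myogenic factors), the MEF2 site, the CArG box of serum response factor, and TATAAA (the TATA box, which can overlap a MEF2 site). The first 3 sequences are of genes among the 15 largest differences upward: Cyp2a5 at chr7:26835089-26835338 (plus strand), Fga at chr3:83025903-83026152 (plus strand) and Serpina1c at chr12:103904951-103905200 (minus strand). The next 3 are of muscle genes: Myh4 at chr11:67237562-67237811 (plus strand), Actc1 at chr2:114052876-114053125 (minus strand) and Mylpf at chr7:127211358-127211607 (plus strand).
Cyp2a5: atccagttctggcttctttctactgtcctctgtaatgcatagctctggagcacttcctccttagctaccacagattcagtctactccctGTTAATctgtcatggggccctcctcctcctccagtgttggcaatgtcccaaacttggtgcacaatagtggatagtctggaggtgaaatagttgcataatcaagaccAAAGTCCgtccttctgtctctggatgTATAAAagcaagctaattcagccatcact
Fga: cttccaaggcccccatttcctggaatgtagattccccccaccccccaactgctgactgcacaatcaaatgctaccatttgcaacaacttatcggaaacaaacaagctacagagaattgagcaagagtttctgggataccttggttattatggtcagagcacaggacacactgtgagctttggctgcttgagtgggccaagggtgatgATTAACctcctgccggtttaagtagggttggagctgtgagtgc
Serpina1c: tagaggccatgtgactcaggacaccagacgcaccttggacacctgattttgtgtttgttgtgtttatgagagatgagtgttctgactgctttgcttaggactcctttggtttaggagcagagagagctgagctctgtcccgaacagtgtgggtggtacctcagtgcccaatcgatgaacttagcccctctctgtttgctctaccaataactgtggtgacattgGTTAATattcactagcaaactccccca
Myh4: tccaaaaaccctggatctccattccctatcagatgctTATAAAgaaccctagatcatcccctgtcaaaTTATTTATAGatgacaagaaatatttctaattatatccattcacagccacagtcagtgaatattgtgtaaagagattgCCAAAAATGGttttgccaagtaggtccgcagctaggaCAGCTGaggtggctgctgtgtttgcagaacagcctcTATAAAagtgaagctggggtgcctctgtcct
Actc1: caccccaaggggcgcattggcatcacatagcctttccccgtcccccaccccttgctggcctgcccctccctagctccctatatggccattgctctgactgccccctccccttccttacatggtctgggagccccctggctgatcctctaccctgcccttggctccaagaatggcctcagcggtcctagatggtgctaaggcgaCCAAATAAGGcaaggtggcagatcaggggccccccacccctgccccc
Mylpf: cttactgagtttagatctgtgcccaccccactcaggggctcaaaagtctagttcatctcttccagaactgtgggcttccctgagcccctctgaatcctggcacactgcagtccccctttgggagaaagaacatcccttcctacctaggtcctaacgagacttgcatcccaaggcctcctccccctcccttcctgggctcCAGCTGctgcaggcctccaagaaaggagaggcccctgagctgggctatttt
Cyp2a5 holds the factor 1 core farthest from the start, then the factor 4 motif, then the TATA box. Fga holds the factor 1 core on the other strand, and Serpina1c holds it on the strand shown. Myh4 holds a MEF2 site that overlaps a TATAAA match, a CArG box, an E box and TATAAA 31 bases before the start; Actc1 holds a CArG box 47 bases before the start, and Mylpf an E box 51 bases before it. Hpx held no liver motif of this set (its match was a CArG box), and Apoa1 held none of the 7 motifs.

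Windows were matched by symbol for 8823 of the genes tested, of which 316 were at least 16-fold higher and 235 at least 16-fold lower on FAK7 arrays (over all genes tested, 3.67% and 2.77% were). GTTAAT stood in 15.2% of the windows of the 16-fold higher genes, 3.83% of those of the 16-fold lower genes and 3.99% of all windows of tested genes. AAAGTCC stood in 10.8%, 3.40% and 3.69%, and TGTTTAC in 4.43%, 2.55% and 2.23%, in the same order. CAGCTG stood in 7.59% of the windows of the 16-fold higher genes, 25.5% of those of the 16-fold lower genes and 11.5% of all. The MEF2 site stood in 1.58%, 11.1% and 1.77%, and the CArG box in 0.949%, 3.83% and 1.31%. TATAAA was more frequent on both sides, at 18% and 15.3% against 7.42% of all. Over all 32851 RefSeq windows, whether or not their gene was tested, the shares were 6.43% for GTTAAT, 3.58% for AAAGTCC, 3.17% for TGTTTAC, 13% for CAGCTG, 2.92% for the MEF2 site, 1.47% for the CArG box and 12.4% for TATAAA. At 4-fold the shares lay closer to those of all tested genes: GTTAAT stood in 8.07% of the windows of 942 higher genes and 2.79% of those of 789 lower genes, AAAGTCC in 6.90% and 2.79%, CAGCTG in 11.5% and 17.6%, and the MEF2 site in 1.91% and 5.32%. These are matches of letters, given as a description with no test.

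Proteins that hepatocytes secrete into plasma rose nearly as a block. Of 18 plasma carrier genes tested, 17 were at least 4-fold higher and 0 lower (median difference 7.49), against 10.8% and 9.37% of all genes and a median of 0.01. The same shares stand beside the 4-fold counts of each list below. Of these 18 carriers, 8 were detected on no FAK5 array, as were 10 of the 18 coagulation genes below. In each list, genes detected on no array of 1 label passed the detection filter through the other label alone, which shapes the counts. Trf, the iron carrier transferrin, was also well above background on FAK5 arrays, at 7.56 ± 0.47 against 14.70 ± 0.06 on FAK7 arrays (141-fold). Ttr, which carries thyroid hormone, was at least 579-fold higher. The 1 carrier below 4-fold was Alb, serum albumin, whose probe read 5.05 to 6.15 on FAK7 arrays (median 5.95) against 4.42 to 4.64 on FAK5 arrays (median 4.52), a difference of 1.29 (SE 0.16, adjusted p = 2.3e-06). The groups did not overlap for Alb. The proteasome genes Psma1 (4.39 on FAK7 and 4.55 on FAK5 arrays) and Psma3 (4.36 and 4.37) were below detection throughout, while 24 others passed the filter. Psma1 and Psma3 were picked after their values were seen, and whether any probe fails to report its transcript was not tested. A low probe signal does not by itself show that a transcript was absent. This holds for Alb and for other genes named as low or undetected, such as Epcam, Fgb, Tat, Slc10a1, Hspa5, Pax7, Fabp1 and Cd5l.

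Of 14 apolipoprotein and lipoprotein assembly genes, 13 were at least 4-fold higher (median 7.61). Apoe, which directs remnant particles to their receptors and is made by many cells, differed 94.4-fold, at 14.25 ± 0.14 on FAK7 arrays and 7.69 ± 0.20 on FAK5 arrays. Pltp, the phospholipid transfer protein, differed by 0.45 (adjusted p = 0.027). All 18 coagulation genes tested were at least 4-fold higher (median 7.10), from Fga and Kng1 through prothrombin, F2 (at least 190-fold), to factor VII, F7 (at least 8.33-fold), and protein S, Pros1 (4.38-fold), which was detected on all 12 arrays. Fgb, the beta chain of fibrinogen, was on the array but not detected on any of the 12 arrays, while Fga and the gamma chain, Fgg (8.66), were high. Of 14 complement genes, 13 were at least 4-fold higher (median 6.00), led by the inhibitor Cfi (at least 220.1-fold), and C9, the pore-forming subunit, was at least 98.6-fold higher. C8b, another subunit of the pore, lay between 9.81 and 10.61 on FAK7 arrays (median 10.28) and between 10.03 and 11.08 on FAK5 arrays (median 10.78). The C8b groups overlapped, and its difference of -0.42 (adjusted p = 0.042) became 0.30 when arrays were scaled to their median.

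Genes of nitrogen, sugar and bile acid metabolism moved the same way. Of 23 genes of the urea cycle and amino acid breakdown, 21 were at least 4-fold higher and 0 lower (median 5.71). The steps of the urea cycle itself ranged widely: Cps1, its entry enzyme, differed by 8.06, Ass1 by 8.18, Asl by 5.10, Arg1 by 9.57 and Otc by 2.16, while Nags, which makes the activator of Cps1, differed by 1.77. Tat, which begins tyrosine breakdown, lay between 4.71 and 5.75 on FAK7 arrays (median 5.18) and between 4.68 and 5.90 on FAK5 arrays (median 5.04), with groups that overlapped (adjusted p = 0.63). Of 12 genes of gluconeogenesis and sugar handling, 11 were at least 4-fold higher (median 4.23). Fbp1, fructose-bisphosphatase of liver, was at least 185-fold higher, Khk, which phosphorylates fructose, 29.9-fold, and Pck1, which makes phosphoenolpyruvate, at least 6.32-fold. G6pc, which frees glucose from glucose-6-phosphate, lay between 7.67 and 12.30 on FAK7 arrays (median 11.77) and between 4.36 and 5.25 on FAK5 arrays (median 4.61), with treated replicate 1 the lowest FAK7 array. Slc37a4, which carries glucose-6-phosphate to G6pc, differed by 0.99.

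Of 12 bile acid genes, 10 were at least 4-fold higher (median 5.18). Cyp7a1, the rate-limiting enzyme of bile acid synthesis, was at least 39.1-fold higher and Slco1b2, an uptake transporter of the sinusoidal side, at least 299.7-fold. Slc10a1, the main sodium-dependent bile acid importer, differed by only 0.71 and averaged 5.36 ± 0.30 on FAK7 arrays, and Nr0b2, the repressor of Cyp7a1, was below detection throughout. Of 24 genes of drug oxidation and conjugation, 22 were at least 4-fold higher (median 6.43). Cyp2a5 led, followed by the glutathione transferase Gsta3 (at least 543-fold) and the fatty acid hydroxylase Cyp4a14 (8.92). The smallest differences were in Cyp2c29, a P450 (1.89), and in Aldh1a1, which makes retinoic acid, with 11.04 ± 0.34 on FAK7 arrays and 9.91 ± 0.69 on FAK5 arrays.

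Of 15 liver transcription factors, 13 were at least 4-fold higher and 0 lower (median 3.74). Nr1h4, the bile acid receptor FXR, lay between 10.80 and 11.45 on FAK7 arrays (median 11.28) and between 4.38 and 4.62 on FAK5 arrays (median 4.48), at least 84.6-fold higher. Hnf4a, a nuclear receptor central to hepatocyte identity, was at least 82.6-fold higher and Foxa3 at least 64.1-fold. Both groups lay well apart for each of these. The pioneer factor Foxa1 (1.34) and Cebpb, an acute phase regulator (0.87), were also detected on all 6 FAK5 arrays and passed at an adjusted p under 0.05 without reaching 4-fold.

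Hepatocytes divide labour along the lobule, with urea and glucose production near the portal vein and drug oxidation and glutamine synthesis near the central vein. Of 9 periportal genes tested, 8 were at least 4-fold higher (median 6.10), such as Cyp2f2 (118-fold) and the histidine-degrading Hal (at least 62.5-fold). Of 13 pericentral genes, 6 were at least 4-fold higher and 1 was lower (median 1.41), so this list was uneven. Cyp2a5, Cyp1a2 (at least 278-fold), Gulo (7.22), which completes vitamin C synthesis, and Cyp2e1 (131-fold) were high. Glul, glutamine synthetase, which marks the cells next to the central vein and is also made in muscle, lay between 5.38 and 6.44 on FAK7 arrays (median 6.18) and between 7.18 and 8.96 on FAK5 arrays (median 8.16). Every FAK7 value of Glul was below every FAK5 value, and its difference was -2.06 (SE 0.27, adjusted p = 6.0e-06). Without 1 array at a time it ran from -2.25 to -1.92, on both sides of 4-fold. Targets of Wnt signalling that mark the same zone, Axin2 (0.68) and Lgr5 (0.93), differed by less than 2-fold.

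Many liver genes differ between male and female mice. Of 10 male-biased genes tested, 9 were at least 4-fold higher (median 4.04), among them the P450 genes Cyp2d9 (at least 164-fold) and Cyp4a12a (at least 15.9-fold), and of 5 female-biased genes tested, 3 were (median 4.72): Acot3, Cyp17a1 and Cyp2b9. Cyp2b9, a P450 that is higher in female liver, lay between 8.69 and 11.09 on FAK7 arrays (median 9.61) and between 4.52 and 5.50 on FAK5 arrays (median 4.97). The other 8 female-biased genes on the array, such as Cyp2b13 and Cyp3a16, did not pass the detection filter in either label. The FAK7 arrays, on which Eif2s3y was detected and Xist was not, thus held transcripts of both lists. No measure of sex other than sex chromosome transcripts was tested.

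The secretory pathway and peroxisomes are present in both tissues, and differed less. Of 21 secretory pathway genes, 4 were at least 4-fold higher and 1 lower (median 1.18), against 10.8% and 9.37% of all genes. P4hb, which forms disulphide bonds in new proteins, was at 14.04 ± 0.16 on FAK7 arrays and 11.12 ± 0.08 on FAK5 arrays. Hspa5, the chaperone BiP of the same compartment, went the other way, at 5.25 ± 0.27 on FAK7 arrays and 7.76 ± 0.34 on FAK5 arrays (5.68-fold lower, adjusted p = 3.3e-09). Of 19 peroxisomal genes, 9 were at least 4-fold higher and 0 lower (median 1.90). Acaa1b, a thiolase (at least 556-fold), the urate oxidase Uox (at least 199-fold) and the glycolate oxidase Hao1 (at least 54.4-fold) led, while Cat, catalase, was 4.30-fold higher.

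**Figure D3:**
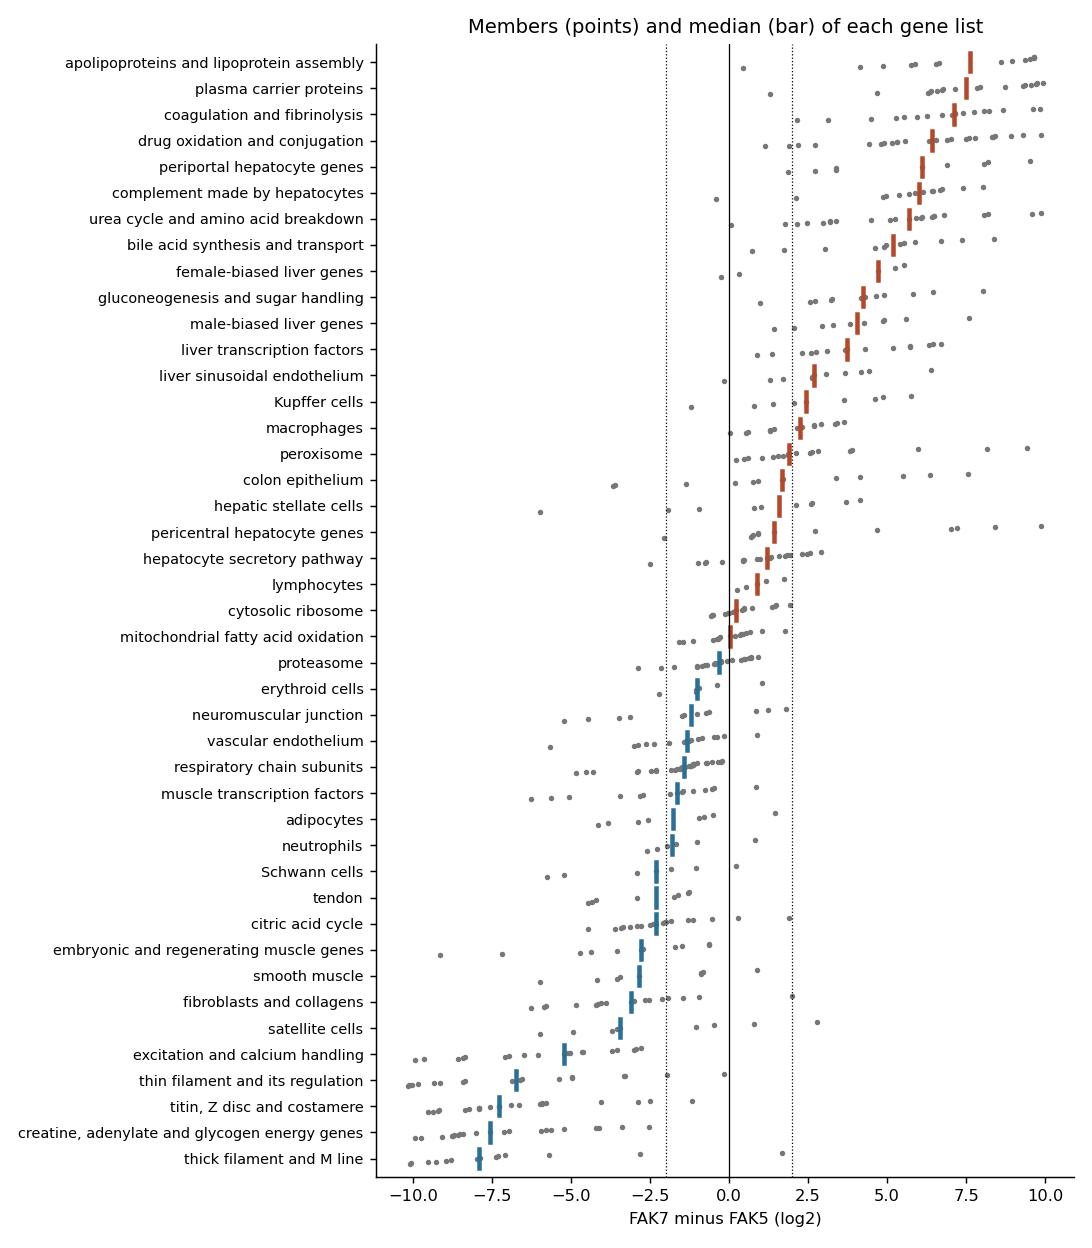
FAK7 minus FAK5 difference (x axis, log2) of each tested member (points) of each gene list with 5 or more tested members (rows), with a bar at the list's median and dotted lines at 4-fold. Lists of plasma proteins and liver metabolism lie to the right, up to a median of 7.61, lists of the contractile apparatus to the left, down to -7.92, and ribosome, proteasome and fatty acid oxidation lists lie near 0.

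On the muscle side the contractile apparatus was lower on FAK7 arrays almost without exception. Of 14 thick filament and M line genes, 13 were at least 4-fold lower and 0 at least 4-fold higher (median -7.92). Of 18 thin filament genes, 16 were lower (median -6.74), and of 22 genes of titin, Z disc and costamere, 21 were (median -7.27). In the thick filament, thin filament and Z disc lists, 10, 13 and 12 genes were detected on no FAK7 array. They passed the detection filter through FAK5 arrays alone, so these counts are shaped by the filter. Tnnc2, fast troponin C, lay between 4.27 and 4.51 on FAK7 arrays (median 4.33) and between 14.44 and 14.60 on FAK5 arrays (median 14.51), and was at least 783-fold lower. Tcap, which caps titin at the Z disc, was at least 482-fold lower, and the calcineurin-binding Myoz1 at least 407-fold lower. Tpm1, a tropomyosin made in many cells, lay between 9.87 and 10.68 on FAK7 arrays (median 10.05) and between 9.82 and 10.72 on FAK5 arrays (median 10.36), with groups that overlapped (adjusted p = 0.32).

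Fibre types were compared through isoforms that mark slow, oxidative fibres. The slow or cardiac genes Myl2 (at least 171-fold), Myl3 (at least 102-fold), Tnnt1 (31.3-fold), Tnnc1 (31.6-fold) and Tnni1 (at least 7.16-fold) were all lower on FAK7 arrays, and Tnnt1 and Tnnc1 were detected on all 6 arrays of both labels. Myh7, the slow and cardiac myosin heavy chain, was the only thick filament gene called in the other direction, with 6.57 ± 0.36 on FAK7 arrays and 4.88 ± 0.42 on FAK5 arrays (1.69, adjusted p = 2.4e-06). Its probes disagreed: the other two differed by -0.16 and -1.93, and the mean of all by -0.13, so no direction is given for Myh7. Most cardiac muscle genes did not pass the detection filter. Of 14 on the array, 11 were not detected throughout any group of 3 arrays, among them Nppa and Tnni3. The 3 tested were all at least 4-fold lower on FAK7 arrays, and Myh6 was at least 12.6-fold lower.

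Of 19 genes of excitation and calcium handling, 19 were at least 4-fold lower (median -5.21). Of these 19, 13 were detected on no FAK7 array and passed the detection filter through FAK5 arrays alone. Pvalb, which buffers calcium in fast fibres, was at least 762-fold lower, Atp2a1, the calcium pump of the fast sarcoplasmic reticulum, at least 660-fold lower, and Ryr1, the calcium release channel, at least 327-fold lower. Casq1, which stores calcium in fast fibres, was at least 91.8-fold lower, and Casq2, the form of slow fibres and heart, at least 20.2-fold lower. Sln, a small inhibitor of the calcium pump, lay between 4.25 and 4.60 on FAK7 arrays (median 4.33) and between 7.64 and 12.43 on FAK5 arrays (median 9.07), with untreated replicate 2 the highest FAK5 array. Clcn1, the chloride channel that stabilises the membrane, had the smallest difference (at least 4.76-fold lower).

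All 21 tested genes of creatine, adenylate and glycogen energy supply were at least 4-fold lower (median -7.56). Ckm, which regenerates ATP from creatine phosphate, lay between 4.33 and 4.63 on FAK7 arrays (median 4.36) and between 14.18 and 14.41 on FAK5 arrays (median 14.36), and was at least 692-fold lower. Mb, myoglobin, was at least 479.95-fold lower. The smallest difference in this list was that of Gys1, glycogen synthase of muscle (at least 4.81-fold lower).

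At the neuromuscular junction, 4 of 12 genes were at least 4-fold lower and 0 higher (median -1.22). These were the acetylcholine receptor subunits Chrnb1 (37.8-fold), Chrna1 (at least 17.0-fold) and Chrne of adult muscle (at least 7.80-fold), and Rapsn, which anchors the receptor (at least 9.66-fold). Chrng, the fetal subunit, was detected on 0 FAK7 arrays and 4 FAK5 arrays and differed by -0.64. Of 15 muscle transcription factors, 6 were at least 4-fold lower (median -1.65). Myf6, the myogenic factor of mature fibres, was at least 64.2-fold lower, Mef2c 49.8-fold lower, Myod1 at least 4.99-fold lower and Myog, which drives differentiation, at least 2.33-fold lower. Mef2d was higher (0.84).

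Of 11 genes linked to embryonic or regenerating muscle, 7 were at least 4-fold lower and 0 higher (median -2.79), at a mouse age of 17 weeks. Igf2, the imprinted fetal growth factor, lay between 5.21 and 5.83 on FAK7 arrays (median 5.65) and between 12.55 and 13.03 on FAK5 arrays (median 12.74), 146-fold lower on FAK7 arrays (adjusted p = 9.5e-17). Dlk1, another imprinted gene, was at least 21.5-fold lower and Myh8, the perinatal myosin, at least 17.1-fold lower. Of 9 satellite cell genes, 5 were at least 4-fold lower and 1 higher (median -3.46). Pax7, which defines these stem cells, was below detection throughout, and the members that moved most, such as Des, desmin, are also made by fibres. The 1 higher gene was Vcam1, an adhesion protein that sinusoidal cells also make.

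Isozyme families showed the contrast gene by gene. Of 27 families with at least 1 tested member, 10 held a member at least 4-fold higher and another at least 4-fold lower on FAK7 arrays. Slc2a2, the low-affinity glucose transporter of hepatocytes, differed by 5.83, and Slc2a4, the insulin-responsive transporter, by -5.94. The other pairs were Pfkl (2.33) and Pfkm (-5.79) of phosphofructokinase, Aldoc (2.41) and Aldoa (-4.22) of aldolase, Pgam1 (2.54) and Pgam2 (-8.73) of phosphoglycerate mutase, and Pklr (2.56) and Pkm (-4.68) of pyruvate kinase. Glycogen and its reverse path gave Pygl (3.27) and Pygm (-6.96), Gys2 (4.16) and Gys1 (-2.52), and Fbp1 (8.04) and Fbp2 (-3.50). Mitochondrial and nucleotide genes gave Cox6a1 (2.20) and Cox6a2 (-8.02), and Ak4 (2.68) and Ak1 (-8.71). The adjusted p of each of these was under 0.05, with SE of 0.08 to 0.29.

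**Figure D4:**
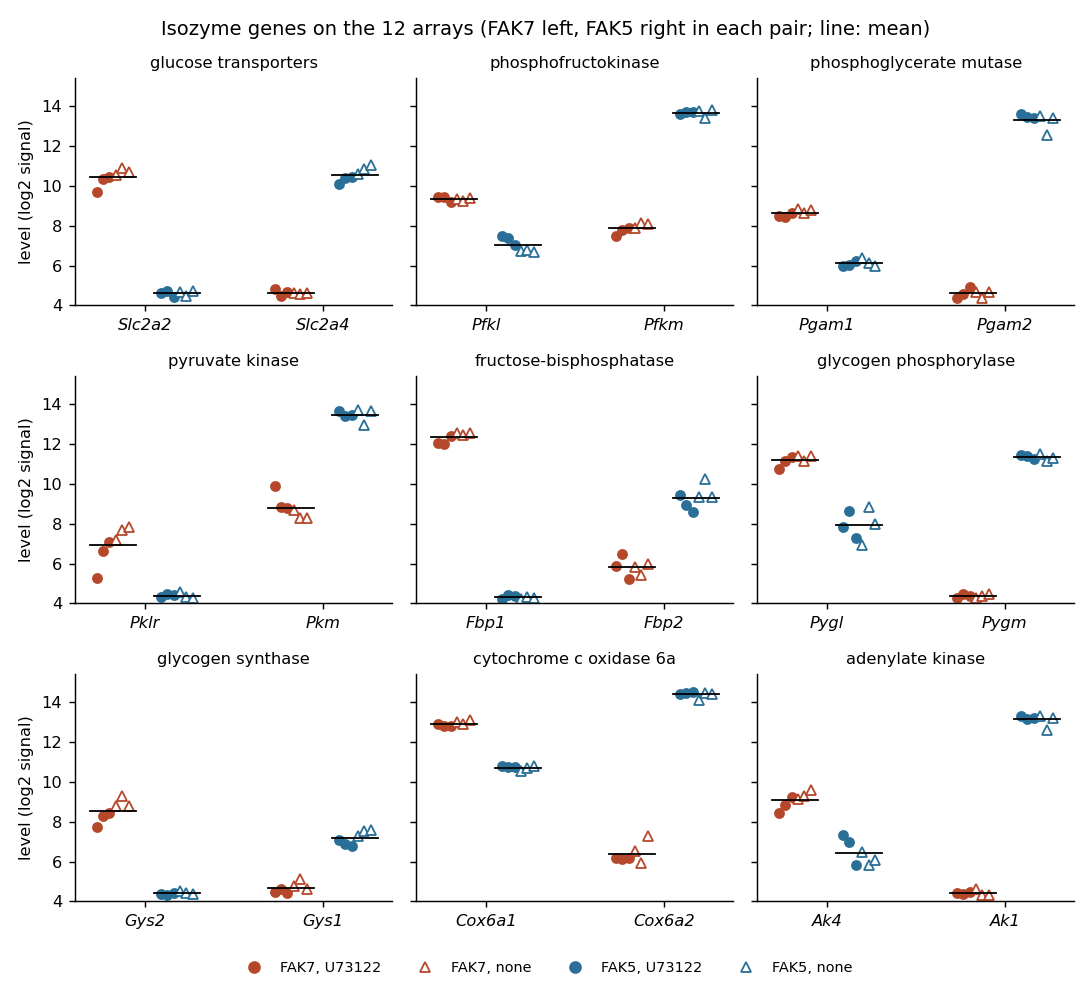
Level of 9 pairs of isozyme genes on each of the 12 arrays (y axis, log2 signal), with FAK7 arrays to the left and FAK5 arrays to the right for each gene, filled circles for U73122, open triangles for no treatment and a line at the mean of 6 arrays. In each panel the gene drawn on the left was higher on FAK7 arrays and the gene on the right lower, with differences from 8.04 (Fbp1) to -8.73 (Pgam2); levels are compared within a gene, not between the genes of a pair.

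The other families had no such pair at 4-fold. The adenine nucleotide translocases Slc25a5 and Slc25a4 differed by 1.96 and -5.61. The elongation factors Eef1a1 and Eef1a2 differed by 1.11 and -8.36, although the mean of the Eef1a1 probes differed by -0.15. The AMP deaminases Ampd2, Ampd3 and Ampd1 differed by 1.45, -1.77 and -8.59, and the carnitine palmitoyltransferases Cpt1a and Cpt1b by 0.52 and -5.62. Both alanine transaminases, Gpt (4.04) and Gpt2 (2.27), were higher, and the lactate dehydrogenases Ldha (-1.20) and Ldhb (-0.55) were lower. The phosphofructokinase Pfkp differed by -0.36 (adjusted p = 0.10). It passed without treated replicate 1 of FAK7 (-0.52, adjusted p = 0.0078) and without treated replicate 1 of FAK5 (-0.46, adjusted p = 0.044), and reached -0.95 without the FAK5 arrays with Xist. The groups were not told apart for Pygb (-0.08, adjusted p = 0.73), Acacb, an acetyl-CoA carboxylase (-0.12, adjusted p = 0.74), and Car3, a carbonic anhydrase abundant in both tissues, which averaged 11.22 ± 1.17 on FAK7 arrays and 11.54 ± 1.07 on FAK5 arrays (adjusted p = 0.59). Fabp1, the liver fatty acid binding protein, was detected on 0 FAK7 arrays and 1 FAK5 array, whereas the muscle form Fabp3 was at least 273-fold lower on FAK7 arrays.

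Among lists of shared machinery, ribosome, proteasome and fatty acid oxidation were more even, while respiratory chain and citric acid cycle genes were lower on FAK7 arrays. Of all genes, 10.8% were at least 4-fold higher and 9.37% lower, and 82.1% passed at an adjusted p under 0.05 alone. Of 17 cytosolic ribosome genes, 0 passed 4-fold in either direction (median 0.21; limma, with 9 higher and 3 lower at an adjusted p under 0.05), and the median became 0.76 when arrays were scaled to their median. Of 17 genes of mitochondrial fatty acid oxidation, 0 passed 4-fold (median 0.01, with 6 higher and 8 lower at an adjusted p under 0.05), with the short-chain dehydrogenase Acads at 1.78 and the long-chain Acadl at -1.60. The other probes of Acadl differed by 1.09 and -3.30, so no direction is given for it. The proteasome list had a median of -0.33 (0.39 with median scaling), so its direction is not settled. Respiratory chain subunits were lower: 8 of 33 were at least 4-fold lower and 0 higher (median -1.44, and -0.73 with median scaling), led by Cox7b (-4.86), Ndufb5 (-4.51) and Atp5a1 (-4.32). Of 19 genes of the citric acid cycle and its entry, 12 were at least 4-fold lower (median -2.33, and -1.71 with median scaling, which left 8), led by Dld, a shared subunit of the dehydrogenase complexes (-4.46). Idh3b, a subunit of isocitrate dehydrogenase, was higher (1.89).

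Markers of other resident cells followed the organ. Of 9 Kupffer cell genes, 6 were at least 4-fold higher (median 2.45). Clec4f, which among mouse macrophages marks Kupffer cells, lay between 8.82 and 9.91 on FAK7 arrays (median 9.35) and between 4.32 and 5.02 on FAK5 arrays (median 4.73), and Vsig4 was at least 53.1-fold higher. Cd5l, another marker, was below detection on all 12 arrays. Of 11 genes of liver sinusoidal endothelium, 8 were at least 4-fold higher and 0 lower (median 2.69), led by Clec4g (at least 82.7-fold) and the scavenger receptor Stab2 (at least 16.4-fold). Of 16 genes of vascular endothelium in general, 0 were at least 4-fold higher and 5 lower (median -1.33), with the junction protein Pecam1 8.13-fold lower. Of 10 stellate cell genes, 5 were higher and 1, Des, lower (median 1.57), with Lrat, which stores vitamin A, at least 12.3-fold higher. Of 15 general macrophage genes, 9 were higher and 0 lower (median 2.23), such as the complement component C1qa (12.4-fold).

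Connective tissue was on the FAK5 side. Of 17 genes of fibroblasts and collagens, 13 were at least 4-fold lower on FAK7 arrays and 0 higher (median -3.09). Col1a1, the main collagen of tendon and bone, lay between 5.59 and 6.54 on FAK7 arrays (median 6.10) and between 9.72 and 13.24 on FAK5 arrays (median 12.77), with untreated replicate 2 the lowest FAK5 array. Fn1, fibronectin, which hepatocytes also secrete into plasma, was 3.93-fold higher. Tendon genes (4 of 8), smooth muscle genes (5 of 9), adipocyte genes (4 of 8) and Schwann cell genes (4 of 7) were at least 4-fold lower, with medians of -2.32, -2.84, -1.77 and -2.31, and none of these lists had a member at least 4-fold higher. Adipoq, an adipocyte hormone, was at least 12.5-fold lower and Mbp, a myelin protein, at least 44.8-fold lower. Of 5 tested lymphocyte genes, 0 passed 4-fold in either direction (limma, with 4 higher at an adjusted p under 0.05; median 0.88). Of 6 erythroid genes, 1, the band 3 anion exchanger Slc4a1, was at least 4-fold lower (median -1.01), and 0 were without untreated replicate 2 of FAK5 or without the FAK5 arrays with Xist. Bile duct, exocrine pancreas and kidney lists had 3, 3 and 2 tested members, with medians of 0.88, 2.64 and 0.63.

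Of 23 colon epithelium genes on the array, 13 passed the detection filter, with 5 at least 4-fold higher and 2 lower. The higher ones were the simple-epithelium keratins Krt8 (at least 169-fold) and Krt18 (at least 69.2-fold), the tight junction protein Cldn3 (at least 37.1-fold), the water channel Aqp8 (at least 14.3-fold) and Cdh1, E-cadherin (at least 9.65-fold), all of which hepatocytes also make. The lower ones were Tspan8, a tetraspanin (at least 12.1-fold), and Car4, a membrane-bound carbonic anhydrase (at least 10.1-fold). Epcam, Cdx1, Cdx2, Krt20 and Vil1 were among the 10 that did not pass. Muc2, the goblet cell mucin, was detected on 0 FAK7 arrays and averaged 5.78 ± 0.26 on FAK5 arrays.

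The arrays of a label were not all alike. Genes of neutrophils and their marrow precursors varied most on FAK5 arrays. S100a8, a calcium-binding protein of neutrophils, was at 8.09, 13.81 and 11.51 on treated FAK5 arrays 1 to 3 and at 7.77, 13.92 and 11.04 on untreated FAK5 arrays 1 to 3, and between 7.89 and 10.82 on FAK7 arrays (median 8.23). Mpo, the myeloperoxidase of precursors, was at 4.92, 10.75, 5.86, 4.37, 7.40 and 5.21 on the same FAK5 arrays and not detected on any FAK7 array. Treated replicate 2 and untreated replicate 2 were thus the highest FAK5 arrays for both genes. Of 6 tested neutrophil genes, 2 (S100a8 and S100a9) were at least 4-fold lower on FAK7 arrays. Without untreated replicate 2 of FAK5, or without the FAK5 arrays with Xist, 0 were. Neither S100a8 nor S100a9 passed without treated replicate 2 of FAK5 (limma, adjusted p = 0.10 and 0.060) or on treated arrays alone (0.26 and 0.19). S100a8 also stopped passing when any 1 untreated FAK7 array was left out. Camp, Ngp and Ltf, of neutrophil granules, were detected on 4 FAK5 arrays each and did not pass the filter.

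Untreated replicate 2 of FAK5 also stood apart in Actc1, Sln and Col1a1 (above) and in Kera, a proteoglycan of tendon and cornea, which was at 5.47 there and between 9.09 and 10.16 on the other FAK5 arrays. Without it, 5 of 8 tendon genes and 14 of 17 fibroblast and collagen genes were at least 4-fold lower, and the 13, 16 and 21 genes of thick filament, thin filament and Z disc stayed at 13, 16 and 21. On the FAK7 side treated replicate 1 stood apart. Mup2, a major urinary protein of liver, was at 10.13 there and between 14.39 and 14.60 on the other FAK7 arrays, and between 5.48 and 10.66 on FAK5 arrays. Cyp8b1, which sets the mix of bile acids, was at 7.26 there and between 9.50 and 11.76 on the others. Without this array the counts of the drug oxidation, bile acid and liver transcription factor lists stayed at 22, 10 and 13. Whether cell content, handling or treatment moved these values was not tested.

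**Figure D5:**
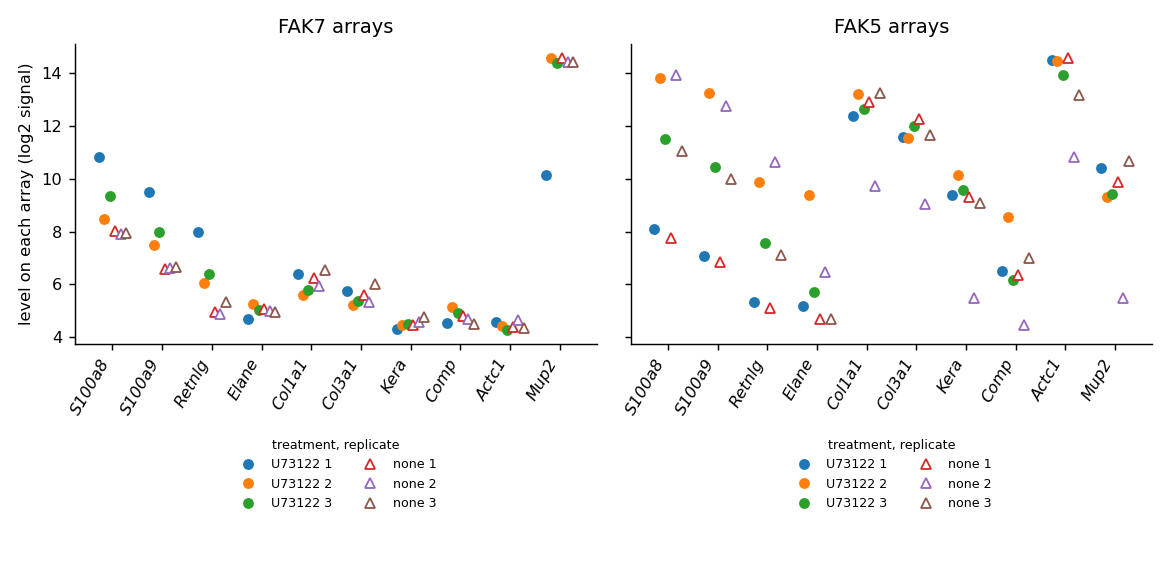
Level of 10 genes on each array (y axis, log2 signal), with FAK7 arrays in the left panel and FAK5 arrays in the right panel, filled circles for U73122 and open triangles for no treatment, coloured by array. S100a8 spans 7.77 to 13.92 among FAK5 arrays, and untreated replicate 2 of FAK5 is the lowest for Col1a1, Col3a1, Kera, Comp, Actc1 and Mup2; treated replicate 1 is the lowest FAK7 array for Mup2.

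Whether the contrast depended on U73122 was tested next. On FAK5 arrays treatment and Xist were partly mixed, with Xist detected on 3 treated arrays and 1 untreated array. In an interaction test, 18 of 10917 genes (0.165%) had a difference between labels that depended on treatment at an adjusted p under 0.05 (1232 at an unadjusted p under 0.05). The count moved with single arrays. Leaving out 1 FAK7 array gave 7, 16 and 9 without treated replicates 1, 2 and 3, and 4, 5 and 3 without untreated replicates 1, 2 and 3. Leaving out 1 FAK5 array gave 3, 11 and 15 without treated replicates 1, 2 and 3, and 35, 17 and 4 without untreated replicates 1, 2 and 3. Saa1, an acute phase protein of liver, was at 13.25, 14.46 and 14.63 on treated FAK7 arrays and 9.86, 10.28 and 9.92 on untreated FAK7 arrays, and between 4.39 and 4.72 on FAK5 arrays. The Saa1 difference was 9.58 on treated and 5.44 on untreated arrays (interaction 4.14, adjusted p = 0.00046). The acute phase genes Saa2 and Orm2 went the same way, with interactions of 3.72 and 2.25. Tiam1, a Rac exchange factor, was at 9.0, 9.13 and 9.55 on treated FAK5 arrays and 6.80, 6.42 and 6.36 on untreated ones, and between 5.17 and 5.59 on FAK7 arrays (interaction -2.92, adjusted p = 0.00039). Slc30a10, a manganese exporter, had an interaction of -1.36. With treated arrays alone, 1205 genes were at least 4-fold higher and 1032 lower, and with untreated arrays alone 1196 and 1033.

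Several probes of a gene can lie in different transcripts. Of 4094 genes with several detected probes, 83 (2.03%) had a probe at least 2-fold higher and another at least 2-fold lower on FAK7 arrays. The largest opposite differences were in Reep6, a membrane-shaping protein (6.66 and -3.10), Prepl, a peptidase-like enzyme (4.78 and -3.06), Sema3b, a secreted semaphorin (2.84 and -2.94), Rhoq, a small GTPase (2.11 and -2.91), and Atp2a2, the calcium pump of slow muscle and of most other cells (2.04 and -3.03). Then came Yipf2 (2.00 and -1.98), Cald1, caldesmon of actin filaments (2.64 and -1.95), and Kyat1, a kynurenine aminotransferase (1.93 and -2.19). For Atp2a2 the brightest probe, used above all, fell on FAK7 arrays (-2.95), and which transcripts the probes report was not analysed here.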

How the data were processed

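Total RNA of each sample was hybridised to 1 Illumina mouse bead array. The deposited non-normalized table gives an intensity for each of 45281 probes on each array, from which background had been subtracted before deposit (25.1% to 30.9% of the values on an array are below 0), together with the p-value of its detection, as per the file headers. Intensity values that the authors normalized further, on the same arrays, were deposited as a series matrix, with no log taken, which was used only as an alternative. The software behind both is not given in the sources used here. Per the labels' protocols, RNA was extracted in Trizol, passed over RNeasy columns and turned into biotinylated cRNA.

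All 18 arrays were normalized together by limma's neqc (version 3.58.1, R 4.3.3, offset 16), which takes log2. A probe was kept if each of the 3 arrays in 1 or more of the 4 groups detected it at p under 0.05 (19814 probes, of which 16889 had 1 gene symbol in the platform annotation). That annotation gives 1 symbol to 34885 probes, several to 18 and none to 10378. The brightest probe over the 12 arrays stood for each of 10917 genes. Label and treatment were fitted with lmFit and eBayes (intensity trend), two-sided, with Benjamini-Hochberg adjustment over all genes; calls needed an adjusted p under 0.05 and, where stated, a 4-fold or 16-fold difference. An interaction of label and treatment was fitted separately. The number of arrays limits the precision.

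Genes were named by a rule: the 4 markers; the 15 largest differences in each direction; of each list the largest and smallest differences, members against the list's direction and defining markers near background; isozyme families; 2 sex-linked genes; the 8 largest opposite probe differences; and the 5 smallest interaction p. Members of 47 lists and 27 families were described, and lists and the arrays compared were chosen with earlier results of these data known. Genes of these lists that are not on the array under a matching symbol were not analysed here. Camp, Ngp, Ltf, Kera, Mup2, Cyp8b1, Col3a1, Comp, Psma1 and Psma3 were named after their values were seen. Promoters came from RefSeq (GRCm38.p6), matched by symbol for 8823 genes, the first entry where several exist.

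Deviations of same-numbered arrays of different groups correlated from -0.103 to 0.289, with 4 of 18 over 0.1. All 4 were among the 6 pairs of a treated and an untreated array of 1 label, which ran from 0.0177 to 0.289. Since not every pair was over 0.1, the numbers were not taken as pairs, although all 6 of these correlations were positive. Pairing within a label was not tested, and the fits treat the arrays of a label as independent. On simulated data for this comparison (10917 genes, 50 changed per size), the share recovered was 52% at 1.5-fold, 94% at 2-fold and 100% at both 4-fold and 16-fold, with 13 false calls. Alternatives covered normalization, filters, probe choice, blocks and leaving out each array. A further allele of the genotype, shared by all groups, is not reported here.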

Additional observations from a re-analysis of the deposited data

Results flagged for a closer look

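Among the 4 markers and the list medians, 102 sets of 6 arrays were examined for an array that stood apart by Dixon's criterion, of which chance alone would flag about 1 in 20; 9 were found. Untreated replicate 2 of FAK5 was the array in 4 of them: Actc1 at 10.84 (the others between 13.19 and 14.60), Hpx at 5.09 (4.50 to 4.68), the energy gene median at 12.79 (13.22 to 13.42) and the fibroblast and collagen median at 8.39 (9.42 to 10.03). Treated replicate 1 of FAK7 was the array in 4: the drug oxidation median at 11.47 (12.49 to 12.98), the liver transcription factor median at 9.24 (9.68 to 9.91), the peroxisome median at 9.83 (10.49 to 10.68) and the neutrophil median at 7.32 (5.25 to 5.87). Treated replicate 2 of FAK7 had an embryonic muscle median of 4.46 (4.58 to 4.64), a level at background.

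The difference between labels depended on treatment for Tiam1 (interaction -2.92), Saa1 (4.14), Saa2 (3.72), Orm2 (2.25) and Slc30a10 (-1.36), each at an adjusted p under 0.05 in limma's interaction test. Saa2 averaged 9.54 on treated and 5.85 on untreated FAK7 arrays, against 4.31 and 4.34 on FAK5 arrays, and Orm2 averaged 13.25 and 10.89, against 4.54 and 4.43.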

How the results depend on the processing

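The 1182 genes higher and 1023 lower became 1996 and 1823 with quantile normalization and no further background correction (the cause was not tested), 457 and 441 when a probe had to be detected at p under 0.01 on each of the 12 arrays, which tests fewer genes, and 401 and 302 at 16-fold. Leaving out 1 array at a time gave 1170 to 1192 higher and 1013 to 1036 lower. Same-numbered treated and untreated arrays of 1 label correlated weakly but positively in their deviations (0.0177 to 0.289 over 6 pairs), and the labels name nothing that they share. With a replicate block the counts stayed at 1182 and 1023. That block gave same-numbered arrays of both labels a common shift, so it did not test pairing within a label. The 18 genes whose difference depended on treatment became 5 with quantile normalization, 9 with median scaling, 2 with the series matrix values, 6 with detection on all 12 arrays, 3 with the replicate block and 3 at an adjusted p under 0.01, and the cause was not tested. The count was 18 with the 12 arrays normalized alone, 13 with no filter on dim probes and 20 with all 18 arrays in the fit. Without 1 array this count lay between 3 (without untreated replicate 3 of FAK7 or treated replicate 1 of FAK5) and 35 (without untreated replicate 1 of FAK5). The 83 genes with opposite probes became 235 with quantile normalization, 23 with detection on all 12 arrays and 5 when each probe had to differ 4-fold, and 80 to 86 without 1 array. Single genes were judged at an adjusted p of 0.05, or of 0.01 in the setting with that threshold. A change of direction was counted only for genes called in the main fit. Of 5658 recomputed differences of the 215 named genes, 5566 were counted as unchanged. Another 78 (of 14 genes) no longer passed, 5 (all of Pfkp) newly passed and 9 turned round. Those 9 were, with the mean of all probes, Eef1a1 at -0.15, Myh7 at -0.13, Prepl at 0.86, Rhoq at -0.40 and Yipf2 at 0.010; with median scaling, C8b at 0.30 and Sema3b at 3.07; with detection on all 12 arrays, Cald1 at -0.23; and without the FAK5 arrays with Xist, Eif2s3y at -1.60. For genes at background on one side, the signal over background limits the difference, which is then a bound.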

Other observations

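Families defined by a shared start of the gene symbol, chosen after the values were seen and therefore given without support from any test of the family, described biology outside the lists. Among all genes, 10.8% were at least 4-fold higher on FAK7 arrays and 9.37% lower. Of 22 H2 genes, most of which encode proteins that present antigens, 13 were at least 4-fold higher on FAK7 arrays and 0 lower (median 2.54, against 0.01 over all genes). Class I genes H2-D1 (12.84 on FAK7 arrays and 9.97 on FAK5 arrays) and H2-K1 (10.97 and 7.91), H2-Q8 (10.30 and 4.80) and class II genes H2-Ab1 (10.80 and 8.01) and H2-Eb1 (9.78 and 7.00) were among them. Another probe of H2-K1 was lower on FAK7 arrays, at 5.46 against 6.84 on FAK5 arrays (-1.38), so its direction depends on the probe. H2-Ob, a modulator of class II loading, went the other way, at 4.77 on FAK7 arrays and 5.20 on FAK5 arrays. Members of this family have near-identical sequences and may share signal.

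Of 15 Hox genes, which set position along the body axis, 5 were at least 4-fold lower on FAK7 arrays and 0 higher (median -1.31). Among all genes, 9.37% were lower and 10.8% higher by this measure. On FAK7 arrays 8 Hox genes were not detected at all. These passed the detection filter through FAK5 arrays alone, so that count is shaped by the filter. Hoxd8 averaged 4.39 on FAK7 arrays and 8.60 on FAK5 arrays, Hoxa7 4.64 and 7.89, and Hoxd9 4.53 and 7.20. Hoxb5 differed by 1.03. Of 6 Mup genes, which encode pheromone carriers made by liver, 6 were at least 4-fold higher, but Mup2 and Mup6 were detected on all 6 FAK5 arrays too, at 9.19 ± 1.90 and 8.24 ± 1.56 (SD, n = 6 each).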
